A study of Mus musculus with 2 samples.

Results

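Long noncoding RNAs (lncRNAs) are transcripts without a recognised protein-coding frame, many of which are read from one cell type and start beside or inside a developmental regulator gene. The 10 lncRNAs described here (Sox2ot, Six3os1, Snhg11, 9130024F11Rik, 2600014E21Rik, C130073E24Rik, A930024E05Rik, 8030451A03Rik, Gm28756 and B020031H02Rik) were picked from 32285 genes in the count matrices for levels that differed between cell classes of the embryonic forebrain. All 10 symbols were present. Because the members were chosen by these class levels, the levels between classes are given as a description, and tests were kept to contrasts inside a class and to neighbouring coding genes.

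Single cells came from the dorsal telencephalon of mouse embryos at embryonic day 16.5 (E16.5), profiled with 10x Genomics single-cell 3′ chemistry, which counts each captured mRNA once by a unique molecular identifier (UMI). The series concerns loss of the histone methyltransferase gene Dot1l through the Emx1-Cre line, in which the recombinase is driven by a dorsal telencephalic promoter. Only 2 WT libraries, WT replicate 1 and WT replicate 6, were used; the conditional knockout was not analysed here. The labels name the genotype as WT without saying which alleles these embryos carried or whether each library came from 1 embryo, so that p-values measure the spread between these 2 libraries.

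After removal of cells outside 1500 to 60000 UMIs or with 10% or more mitochondrial reads, WT replicate 1 had 8139 cells and WT replicate 6 had 8209, of which 50.6% and 53.7% met exactly 1 marker gate. The libraries held 74930397 and 68964234 UMIs and shared 59 barcodes. Each gate asked for several distinct markers of a class and few of any other. The gated classes were radial glia (268 and 271 cells in the libraries), intermediate progenitors (126 and 132), excitatory neurons (2272 and 2581), progenitors of the ganglionic eminences (GE, 86 and 74), interneurons (954 and 952), striatal neurons (281 and 267), microglia (68 and 74) and endothelial cells (66 and 56). Every class held all its own markers in both libraries, and the summed level of each class's own marker list was higher there than in any of the other 7 classes. The gates used these same lists, so this outcome follows from the selection and does not test the classes. Cells that met the striatal and GE gates were present although the labels name the dorsal telencephalon.

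As background, radial glia are the stem cells that line the ventricle, intermediate progenitors are their dividing offspring, and excitatory neurons of the cortex descend from both. GABAergic interneurons and striatal projection neurons are born in the ganglionic eminences, from which the interneurons migrate into the cortex. Many lncRNA genes share a locus with a transcription factor gene and are transcribed in the same cells, as Sox2ot with Sox2 and Six3os1 with Six3, while other lncRNAs such as Snhg11 host small nucleolar RNAs.

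In GENCODE vM39 (GRCm39), Sox2ot holds Sox2 on its own strand, and Six3os1, A930024E05Rik and 8030451A03Rik overlap Six3, Kdm2b and Tnc on the opposite strand. Whether counting used strand is not given in the sources used here, so reads of an overlapping pair may have been shared between its genes, and the values of both partners are uncertain to that degree. RefSeq positions on GRCm38.p6, the assembly of mm10, follow for the members where they are given. Sox2ot spans chr3:34560381-34677993 on the plus strand and Six3os1 chr17:85601932-85618396 on the minus strand. The plus-strand genes 2600014E21Rik and Snhg11 lie at chr2:75137655-75322407 and chr2:158375713-158386474. A930024E05Rik and 8030451A03Rik are at chr5:122989354-122998345 and chr4:63984731-64148556, also on the plus strand. Coordinates of 9130024F11Rik, C130073E24Rik, Gm28756 and B020031H02Rik are not given here.

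RefSeq promoter windows, 250 bases before to 50 bases after an annotated start on GRCm38.p6, existed for 6 members. They were searched on both strands for TAATTA, a core bound by many homeodomain factors, CAGATG, an E-box read by neuronal basic helix-loop-helix factors, and ACAANG, a SOX core. Of all 32851 promoter windows, 5.29% held TAATTA, 17.2% CAGATG and 41.3% ACAANG. No member window held TAATTA. The windows of 9130024F11Rik and Snhg11 and 2 of the 3 windows of 2600014E21Rik held no match to any of the motifs, and that of A930024E05Rik held 1 ACAANG match. Each of the windows printed here held at least 1 match, marked by capitals. They are shown 5′ to 3′ on the strand of the lncRNA.
Six3os1, chr17:85618347-85618646, minus strand: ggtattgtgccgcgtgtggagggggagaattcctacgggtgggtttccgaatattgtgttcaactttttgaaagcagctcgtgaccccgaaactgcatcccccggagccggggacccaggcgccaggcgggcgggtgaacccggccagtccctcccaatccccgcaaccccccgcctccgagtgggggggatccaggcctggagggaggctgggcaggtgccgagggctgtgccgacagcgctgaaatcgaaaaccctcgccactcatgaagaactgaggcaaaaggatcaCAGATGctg
8030451A03Rik, chr4:63984481-63984780, plus strand: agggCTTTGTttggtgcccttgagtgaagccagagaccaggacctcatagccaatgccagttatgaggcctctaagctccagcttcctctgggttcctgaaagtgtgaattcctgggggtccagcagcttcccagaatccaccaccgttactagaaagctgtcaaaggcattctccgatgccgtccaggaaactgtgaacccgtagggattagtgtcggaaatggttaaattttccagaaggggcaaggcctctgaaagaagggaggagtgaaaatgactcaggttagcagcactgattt
2600014E21Rik, chr2:75275184-75275483, plus strand: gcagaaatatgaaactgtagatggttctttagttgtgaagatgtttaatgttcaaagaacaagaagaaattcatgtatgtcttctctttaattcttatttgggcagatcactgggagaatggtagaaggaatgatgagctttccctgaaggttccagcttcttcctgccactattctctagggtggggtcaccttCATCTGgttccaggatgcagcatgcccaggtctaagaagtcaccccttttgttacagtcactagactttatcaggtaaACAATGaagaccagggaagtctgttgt
A single CAGATG core stood in the Six3os1 window, 1937 bases from the nearest Six3 window. The 8030451A03Rik window held an ACAANG match as CTTTGT, and 252 of its 300 bases lay over coding sequence of Tnc read from the other strand. In the 2600014E21Rik window both an E-box (as CATCTG) and a SOX core were present. The A930024E05Rik window shared 246 bases with a Kdm2b window of the opposite strand.

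Levels are given as CPM, the UMIs of a gene over all UMIs of a class's cells in a library, scaled to 1e+06, and a gene was compared only with itself. Sox2ot, the transcript that runs over Sox2, was highest in interneurons at 3813 CPM in WT replicate 1 and 4257 CPM in WT replicate 6. GE progenitors followed at 3661 and 2778 CPM, striatal neurons at 1032 and 1139 CPM, and radial glia at 577 and 586 CPM. Intermediate progenitors held 134 and 82.3 CPM and excitatory neurons 30.4 and 35.97 CPM, and both libraries of each class lay above both of the next. The excitatory level lay within that of microglia and endothelial cells, 30.3 to 101 CPM, and is read as background. After thinning each cell to 2000 UMIs, 88.9% and 92.4% of interneurons had a Sox2ot UMI, against 5.08% and 4.92% of microglia. The unthinned means were 94.3% of interneurons, at median depths of 3771 and 3375.5 UMIs, and 6.44% of microglia, at 8042 and 6854 UMIs.

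The next 3 members were highest in GABAergic neurons with little in excitatory cells. C130073E24Rik reached 391 and 449 CPM in interneurons, 66.0 and 54.7 CPM in striatal neurons, and 10.0 and 7.37 CPM in excitatory neurons. Striatal neurons and GE progenitors, at 12.6 and 57.1 CPM, overlapped for this gene, and the 35 UMIs behind the second GE progenitor value came from 2 of 74 cells. B020031H02Rik held 170 and 193 CPM in striatal neurons, 143 and 171 CPM in GE progenitors and 88.8 and 91.7 CPM in interneurons. The striatal and GE progenitor libraries overlapped, those of interneurons lay below both, and no other neural class exceeded a mean of 4.27 CPM. Six3os1, which starts beside the eye and forebrain homeobox gene Six3, held 75.1 and 88.4 CPM in striatal neurons. Radial glia (19.6 and 16.1 CPM), GE progenitors (6.31 and 29.4 CPM) and interneurons (9.90 and 24.2 CPM) overlapped one another at a lower Six3os1 level. Endothelial cells had no Six3os1 UMI, which allows up to 3.96 and 4.21 CPM at a limit of 3 counts per library.

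Snhg11, a host gene of small nucleolar RNAs known from maturing neurons, held 69.3 and 63.0 CPM in interneurons. Its level was 14.2 and 15.7 CPM in striatal neurons and 6.90 and 13.9 CPM in excitatory neurons. Every progenitor class had a mean Snhg11 level at or below 3.41 CPM, and its UMIs in radial glia numbered 17 in the first library and 1 in the second.

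Excitatory cells and their progenitors carried 3 other members. 9130024F11Rik held 418 and 488 CPM in excitatory neurons, 25.2 times the mean of striatal neurons, the next class. After thinning, 45.2% and 52.0% of excitatory neurons had a UMI of 9130024F11Rik against 3.95% and 2.67% of interneurons (unthinned means 72.0% and 6.505%). 2600014E21Rik held 91.3 and 61.5 CPM in intermediate progenitors and 64.2 and 73.2 CPM in excitatory neurons, which overlapped, and at most a mean of 2.79 CPM in the other neural classes. No 2600014E21Rik UMI was found in GE progenitors, which allows up to 3.79 and 4.89 CPM. A930024E05Rik, which starts opposite the histone demethylase gene Kdm2b, held 24.0 and 25.3 CPM in intermediate progenitors and 20.4 and 19.98 CPM in excitatory neurons. Microglia, at 7.54 and 7.74 CPM, set a background for A930024E05Rik above the means of the remaining neural classes.

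In radial glia, 8030451A03Rik held 318 and 306 CPM, 9.18 times the mean of GE progenitors, where it stood at 12.6 and 55.5 CPM. Excitatory neurons held 1.47 and 1.16 CPM of it. After thinning, 34.2% and 36.3% of radial glia had a UMI of 8030451A03Rik against 0.224% and 0.196% of excitatory neurons (unthinned means 59.0% and 0.709%).

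Gm28756 was found in 3 neuron classes. It held 19.6 and 21.0 CPM in excitatory neurons and 11.7 and 27.0 CPM in striatal neurons, which overlapped, and 11.5 and 8.96 CPM in interneurons. No progenitor class exceeded a mean of 3.52 CPM for Gm28756.

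**Figure D1:**
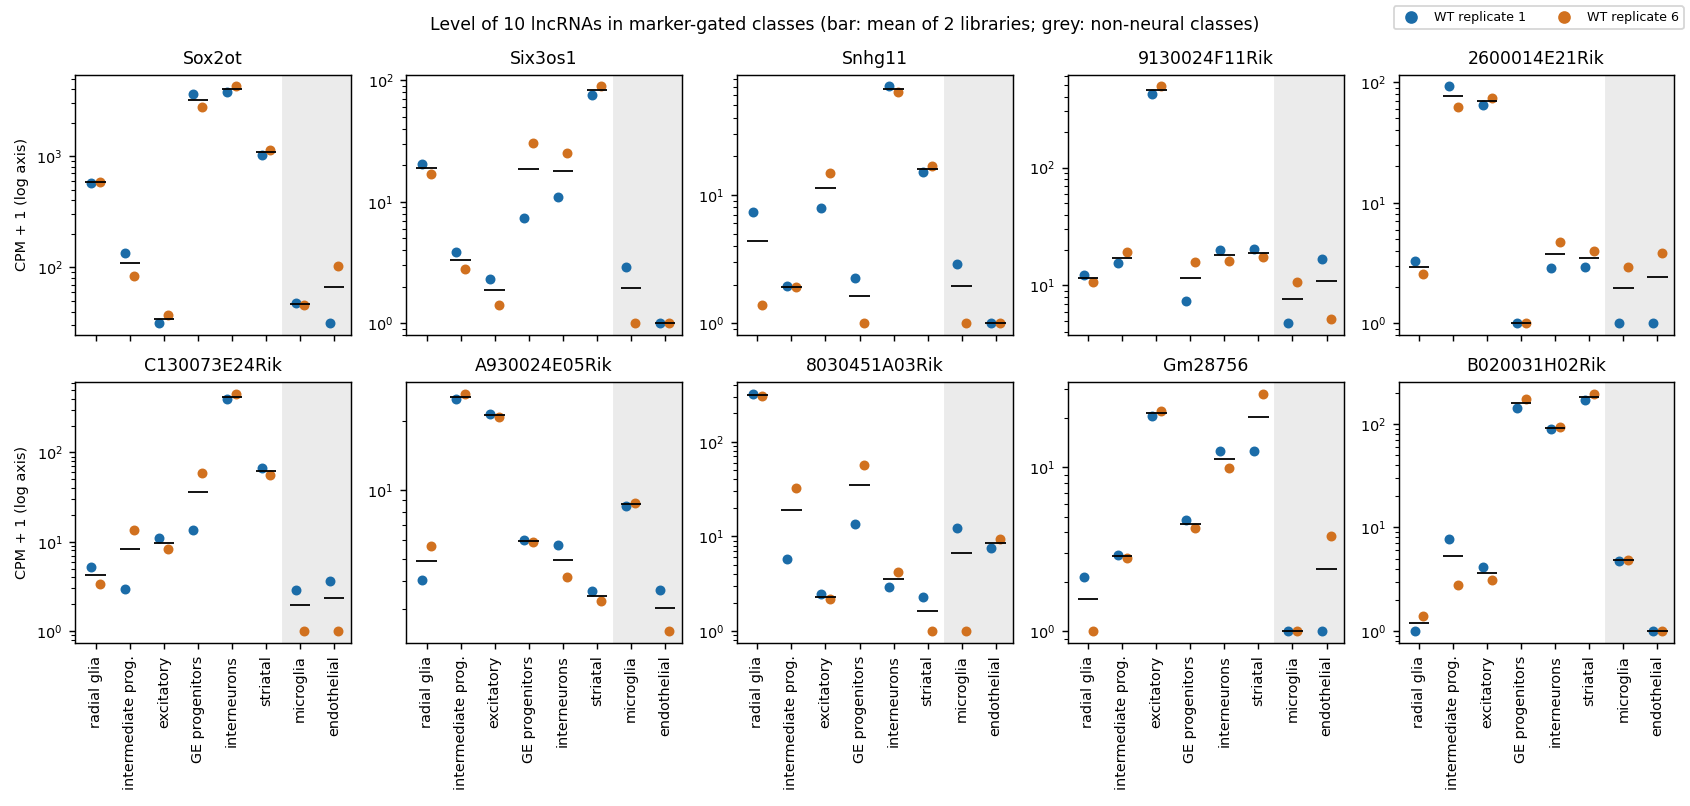
Level of each lncRNA (CPM + 1, log axis) in 6 neural and 2 non-neural classes. Points are the 2 libraries and bars their mean; Sox2ot stood at 3813 and 4257 CPM in interneurons, while Gm28756 in excitatory and striatal neurons overlapped.

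Inside the striatal class, neurons gated on Drd2, Penk, Adora2a or Gpr6 (indirect-type, 83 and 81 cells) carried more of 4 members than neurons gated on at least 2 of Ebf1, Isl1, Drd1 and Tac1 (direct-type, 76 and 75 cells). Direct-type neurons project to the output nuclei of the basal ganglia, whereas indirect-type neurons act through the globus pallidus. Of the 10 members 5 passed the filter on low counts and 4 were called by edgeR's quasi-likelihood test at a Benjamini-Hochberg adjusted p under 0.05, all lower in direct-type neurons, where 6.21% of all 6634 genes tested were called and 3.21% were called lower. Which members pass depends on their level, so that the number is not read as a property of the list. Six3os1 stood at 4.44 and 7.05 CPM (2 and 3 UMIs) in direct-type against 140 and 211 CPM (75 and 90 UMIs in 34 of 83 and 38 of 81 cells) in indirect-type neurons. The ratio, indirect over direct, was 31.5 (95% exact interval 8.42 to 265) in WT replicate 1 and 29.9 (9.91 to 148) in WT replicate 6, intervals that cover counting error only. Six3os1 passed the filter through its indirect-type level, and its fitted fold depends on the count added before the logarithm, so that none is given. Sox2ot stood at 375 and 338 CPM against 1234 and 1826 CPM, a log2 difference, direct minus indirect, of -2.08 ± 0.19 (SE, n = 2 libraries per class; edgeR adjusted p = 1.67e-06). For C130073E24Rik the values were 22.2 and 2.35 CPM (10 UMIs and 1 UMI) against 119 and 84.3 CPM (64 and 36 UMIs in 14 and 13 cells), a ratio of 5.38 (2.74 to 11.7) in the first library and 35.9 (6.04 to 1456) in the second. This lncRNA, too, passed the filter through its indirect-type level. B020031H02Rik was at 97.6 and 75.2 CPM against 158 and 265 CPM (-1.25 ± 0.26, edgeR adjusted p = 0.00471), and no direct-type library reached an indirect-type one for any of these lncRNAs. The B020031H02Rik call was lost with DESeq2 (adjusted p = 0.124) and among cells of 4000 to 12000 UMIs (edgeR adjusted p = 0.0724).

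Gm28756 had the opposite order, 24.4 and 37.6 CPM in direct-type against 3.73 and 14.05 CPM in indirect-type neurons. These values rest on 11 and 16 against 2 and 6 UMIs. Gm28756 passed the filter through its direct-type level, so that no fitted fold is given. It was not called (edgeR adjusted p = 0.0913). With libraries fitted as blocks it was called (edgeR adjusted p = 0.0293), under the same limit.

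The coding partners were tested in the same fit. Sox2, the stem cell and neural progenitor factor, stood at 6.65 and 7.05 CPM (3 UMIs in each library) in direct-type and 255 and 325 CPM (137 and 139 UMIs) in indirect-type neurons, a ratio of 38.4 (12.9 to 188) and 46.2 (15.5 to 227). Six3 stood at 33.3 and 11.7 CPM against 324 and 576 CPM and was called. Camkmt, a calmodulin methyltransferase gene that lies beyond Six3, was also called (-1.41 ± 0.22, edgeR adjusted p = 5.17e-04). Sox2, Six3 and Camkmt were the 3 called of 11 neighbouring coding genes that passed the filter, out of 24 that are not gate markers. Sox2 and Six3 passed the filter through their indirect-type levels. No fitted fold is therefore given for them, and this count is not read as a property of the neighbours. Sox2 and Sox2ot are on the same strand, and their sharing of reads was not tested. Sox9, a progenitor factor among the radial glia markers, stood at 108 and 72.6 CPM in indirect-type against 11.1 and 7.05 CPM in direct-type neurons, and at 64.4 and 75.0 CPM in GE progenitors. The 8 radial glia markers summed to 127 and 91.3 CPM in indirect-type neurons, with 7 and 4 of them detected. In direct-type neurons they summed to 44.4 and 28.2 CPM, with 7 and 5 detected. Sox9 made up most of the indirect-type sum, and the other markers together were lower in indirect-type than in direct-type neurons in both libraries. The striatal gate admitted at most 1 radial glia marker per cell. Low sums of these markers thus follow in part from that selection and do not measure progenitor RNA. The 5 GE progenitor markers summed to 14.9 and 9.36 CPM against 8.87 and 2.35 CPM, with 4 and 1 against 2 and 1 detected. The part of progenitor RNA in the differences of Sox2ot, Six3os1, Sox2 and Six3 was not tested.

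Interneurons were split into MGE-type cells (gated on Lhx6 or Sst, 226 and 270 cells) and CGE-type cells (gated on at least 2 of Prox1, Adarb2, Sp8, Nr2f2 and Htr3a, 232 and 240 cells), named for the medial and caudal ganglionic eminences. Of the 10 members 7 passed the filter and 3 were called, all lower in MGE-type cells, where 8.77% of 9487 genes were called and 4.76% were called lower. B020031H02Rik stood at 38.4 and 38.3 CPM in MGE-type against 115 and 91.8 CPM in CGE-type cells, a log2 difference, MGE minus CGE, of -1.44 ± 0.20 (edgeR adjusted p = 2.37e-04). Six3os1 stood at 2.02 and 2.74 CPM (2 and 3 UMIs) against 10.8 and 32.9 CPM (12 UMIs in 7 of 232 cells and 33 UMIs in 4 of 240). It passed the filter through the CGE-type cells, a few of which held its UMIs, and the ratio, CGE over MGE, was 5.33 (1.19 to 49.0) and 12.04 (3.78 to 61.4). Snhg11 stood at 26.3 and 41.9 CPM against 62.9 and 69.9 CPM (-0.95 ± 0.24, edgeR adjusted p = 0.0215). Six3 followed Six3os1 at 6.07 and 3.65 CPM against 50.3 and 49.9 CPM (edgeR adjusted p = 2.25e-05), the only neighbour called of 12 tested. It also passed the filter through the CGE-type cells, so that no fitted fold is given. With DESeq2 the Six3os1 and Snhg11 calls were lost (adjusted p = 0.0559 and 0.464), and Snhg11 was also lost in a fit of all classes (edgeR adjusted p = 0.396) and among cells of 4000 to 12000 UMIs (0.0897), so that it was called in 4 of 7 alternatives.

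The summed level of C130073E24Rik overlapped between the interneuron types, at 333 and 496 CPM in MGE-type and 401 and 454 CPM in CGE-type cells (-0.05 ± 0.18, edgeR adjusted p = 0.933). After thinning to 2000 UMIs, which left out 27 and 28 MGE-type and 20 and 25 CGE-type cells, 33.2% and 37.6% of MGE-type but 17.9% and 19.5% of CGE-type cells had a C130073E24Rik UMI, and these shares did not overlap. Unthinned, 329 UMIs in 96 cells and 544 in 127 were found in the MGE type (42.5% and 47.0% of cells, median depths 3631.5 and 3557 UMIs), against 446 in 48 cells and 455 in 56 in the CGE type (20.7% and 23.3%, median depths 4408 and 3406.5 UMIs). The CGE-type sum thus came from fewer cells with more UMIs each, and this difference in shares was not tested. Sox2ot stood at 3385 and 3857 CPM against 4136 and 4618 CPM (-0.28 ± 0.13, edgeR adjusted p = 0.257). The Sox2ot difference passed with libraries fitted as blocks (adjusted p = 2.43e-04).

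The CGE-type gate held much RNA of Meis2, a homeobox gene of striatal and olfactory bulb neurons of the lateral eminence, at 2096 and 1875 CPM against 88.0 and 72.0 CPM in the MGE-type gate. Excitatory neurons also held Meis2, at 1609 and 1470 CPM. Meis2 was chosen after these values were seen. Cells with a Meis2 UMI made up 62.1% and 59.6% of CGE-type and 24.3% and 18.5% of MGE-type cells. The Meis2 level of MGE-type cells lay within that of microglia and endothelial cells, 50.1 to 151 CPM, and may thus be background. Whether MGE-type cells with a Meis2 UMI form a separate population was not tested. In CGE-type cells with Meis2, B020031H02Rik stood at 169 and 144 CPM, and in those without it at 13.04 and 2.70 CPM, from 5 and 1 UMIs. MGE-type cells with a Meis2 UMI held 63.0 and 72.5 CPM of B020031H02Rik, from 15 and 16 UMIs, and those without held 30.6 and 29.7 CPM. Among cells without a Meis2 UMI the order of the types was thus the reverse, but it was not called (edgeR adjusted p = 0.0542). B020031H02Rik passed the filter there through the MGE-type cells. Its fitted fold depends on the count added before the logarithm, so that none is given.

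Six3os1 had 12 and 33 UMIs in CGE-type cells with Meis2 and none in those without, which allows up to 7.83 and 8.10 CPM. Snhg11 ran the other way, at 88.7 and 103 CPM in CGE-type cells without Meis2 and 49.3 and 50.7 CPM in those with it. Its call held among cells without a Meis2 UMI (-1.30, edgeR adjusted p = 0.0127). Sox2ot differed little between the types without Meis2 (0.12, edgeR adjusted p = 0.869) and stood highest, at 4819 and 5035 CPM, in CGE-type cells with it. The share of olfactory bulb neurons among these cells was not tested.

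**Figure D2:**
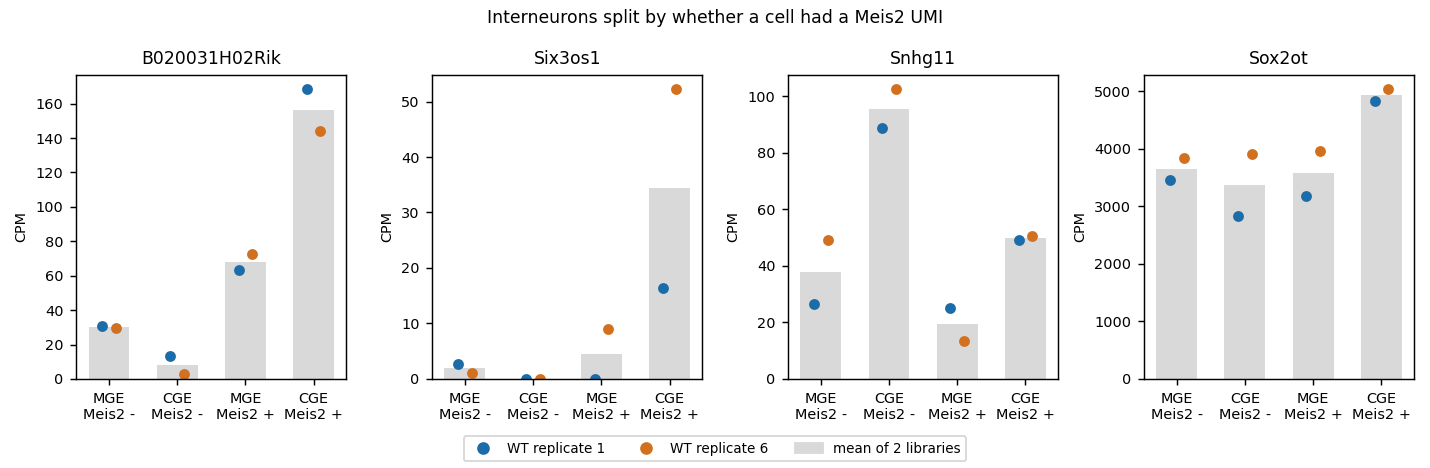
Level in CPM of 4 lncRNAs in MGE-type and CGE-type interneurons with (+) and without (-) a Meis2 UMI; bars are means of 2 libraries and points the libraries. B020031H02Rik and Six3os1 were high in CGE-type cells with Meis2 (169 and 144 CPM of B020031H02Rik), Snhg11 in those without. Meis2 in MGE-type cells lay at the level of microglia and endothelial cells.

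Among excitatory neurons, cells gated on at least 2 of the upper-layer markers Cux1, Cux2, Unc5d and Pou3f2 (1219 and 1395 cells) were set against cells gated on at least 2 deep-layer markers, such as Tle4, Fezf2 and Bcl11b (292 and 301 cells). Of the 10 members 8 passed the filter and 5 were called, where 20.3% of 13408 genes were called. 9130024F11Rik stood at 96.5 and 95.4 CPM in deep-layer against 594 and 675 CPM in upper-layer cells, a log2 difference, deep minus upper, of -2.73 ± 0.09 (edgeR adjusted p = 2.69e-07).

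2600014E21Rik was also lower in deep-layer cells, at 21.2 and 24.3 CPM against 54.7 and 63.0 CPM (-1.38 ± 0.12, edgeR adjusted p = 6.52e-05). Under stricter gates this difference was gone (-0.03, edgeR adjusted p = 0.986). A930024E05Rik stood at 5.79 and 9.29 CPM against 18.1 and 15.9 CPM (-1.20 ± 0.23, edgeR adjusted p = 0.00688). Its deep-layer values lay on either side of the microglia background, 7.54 and 7.74 CPM, so that the size of this difference is uncertain. The partner gene Kdm2b stood at 100 and 110 CPM against 130 and 138 CPM (-0.36 ± 0.08, edgeR adjusted p = 0.0143), a call that held in 5 of 8 alternatives (highest adjusted p = 0.808).

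A pair of members was higher in deep-layer cells. C130073E24Rik, whose highest class was interneurons, stood at 22.5 and 28.2 CPM against 3.52 and 3.05 CPM (2.93 ± 0.22, edgeR adjusted p = 2.06e-05). Among cells of 4000 to 12000 UMIs its difference was 1.60 and did not pass (edgeR adjusted p = 0.0768). Gm28756 stood at 19.9 and 23.2 CPM against 13.2 and 10.96 CPM (0.82 ± 0.18, edgeR adjusted p = 0.0107), lost with DESeq2 (adjusted p = 0.0732). Snhg11 stood at 10.3 and 31.8 CPM against 3.34 and 8.98 CPM. The deep-layer sums were 32 UMIs in 6 of 292 cells and 89 in 5 of 301, and the upper-layer sums 36 UMIs in 21 of 1219 cells and 100 in 20 of 1395. The share of cells with an Snhg11 UMI was thus 2.05% and 1.66% against 1.72% and 1.43%, and a handful of cells set the deep-layer level. The summed levels did not overlap, but WT replicate 6 was the higher library in both, and the difference of 1.73 ± 0.53 missed the threshold (edgeR adjusted p = 0.0503) but not when libraries were fitted as blocks (adjusted p = 2.24e-12). Of 17 neighbours tested, 3 were called, all lower in deep-layer cells: Kdm2b, Tenm3 (-0.58 ± 0.13) and 1700066M21Rik (-0.80 ± 0.17). Each of these calls held in 5 of 8 alternatives.

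Radial glia with at least 3 cell cycle markers (cycling, 109 and 108 cells) were set against those with none and at most 1 S phase marker (non-cycling, 54 and 56 cells). Median depth was 10789 and 9626.5 UMIs in cycling and 5303.5 and 6797 UMIs in non-cycling cells. Of the 10 members 4 passed the filter and 3 were called, all lower in cycling cells, where 13.1% of 9256 genes were called and 5.86% were called lower. Sox2ot stood at 483 and 413 CPM in cycling against 734 and 856 CPM in non-cycling cells, a log2 difference, cycling minus non-cycling, of -0.82 ± 0.17 (edgeR adjusted p = 0.00833). Sox2 itself stood at 333 and 323 CPM against 346 and 294 CPM, and the groups overlapped (0.05 ± 0.17, edgeR adjusted p = 0.900).

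8030451A03Rik stood at 236 and 185 CPM in cycling against 557 and 365 CPM in non-cycling radial glia (-1.12 ± 0.23, edgeR adjusted p = 0.00854). Among cells of 4000 to 12000 UMIs that difference was -0.53 and not called (edgeR adjusted p = 0.347). Tnc, which encodes the matrix protein tenascin C, stood at 1071 and 911 CPM against 1700 and 1091 CPM (-0.49 ± 0.21, edgeR adjusted p = 0.168; 7.07e-04 with libraries fitted as blocks). Six3os1 stood at 6.89 and 9.51 CPM against 31.4 and 38.0 CPM, from 9 and 11 against 11 and 15 UMIs. Its non-cycling level alone carried it past the filter, so that no fitted fold is given. The number of members called is thus not read as a property of the list. With DESeq2 the Six3os1 call was lost (adjusted p = 0.235). Six3 went the same way (-1.61 ± 0.37, edgeR adjusted p = 0.0151), a call that held in 5 of 7 alternatives, and the splicing factor gene Hnrnpa3 beyond 2600014E21Rik was the other neighbour called of 16 tested, higher in cycling cells (0.77 ± 0.16). The summed level of 5 GE progenitor markers was 165 and 184 CPM in cycling and 109 and 195 CPM in non-cycling radial glia.

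**Figure D3:**
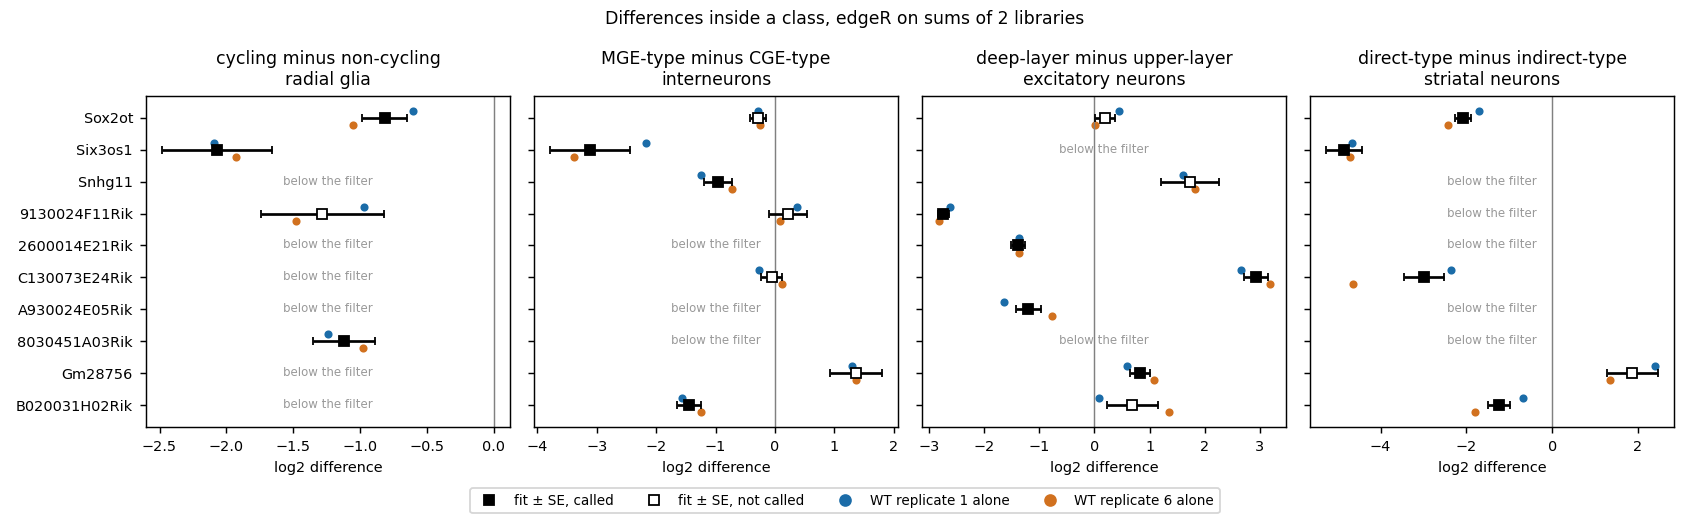
Log2 difference of each lncRNA inside 4 classes; squares show the edgeR fit with its SE, filled where the adjusted p was under 0.05, and circles each library alone. Members below the filter on low counts are named as such. 9130024F11Rik reached -2.73 between the layers, and the Six3os1 squares for the striatal and interneuron types rest on 2 and 3 UMIs in one group.

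These overlapping pairs were then compared over 24 sums (12 classes in 2 libraries) by Pearson's r of log2(CPM + 10), as a description, since sums of a library share depth and cells. The r was 0.978 for 8030451A03Rik and Tnc, 0.948 for Six3os1 and Six3, 0.812 for Sox2ot and Sox2, and 0.641 for A930024E05Rik and Kdm2b. Among 7843 genes with at least 50 CPM in 1 sum, Tnc and Six3 ranked 1 for their partners, Sox2 ranked 20 and Kdm2b ranked 45. Sox2ot and Sox2 parted in radial glia and interneurons: Sox2 was 327 and 318 CPM in radial glia and 194 and 193 CPM in interneurons, while Sox2ot was 577 and 586 CPM and 3813 and 4257 CPM there.

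**Figure D4:**
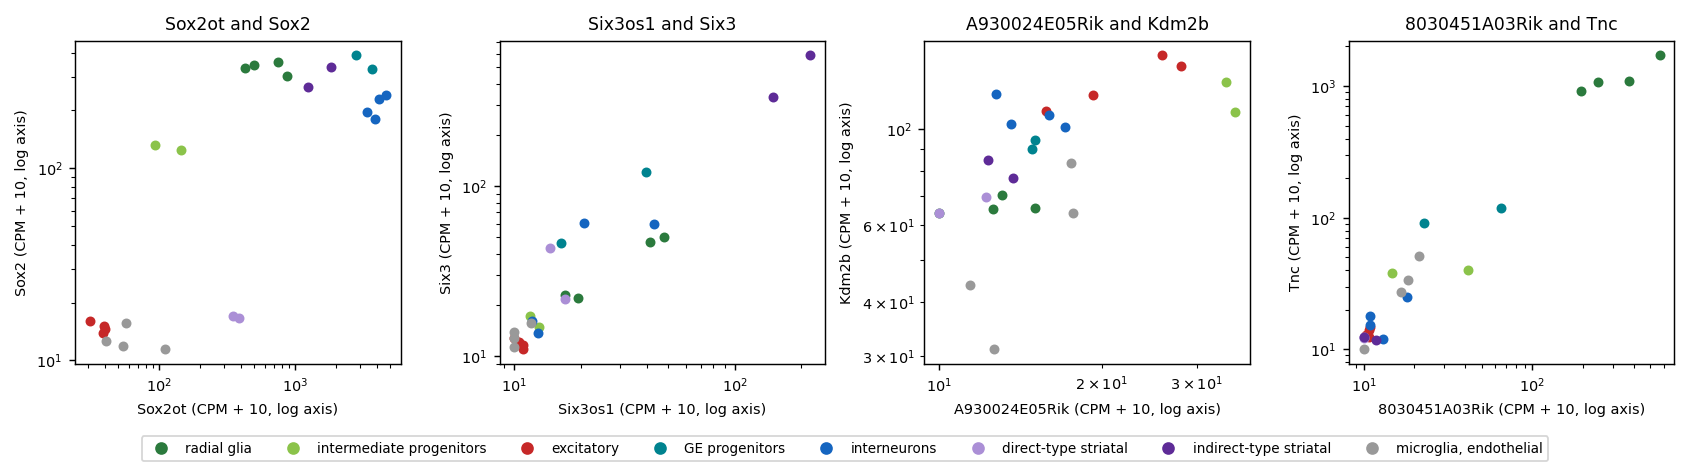
4 lncRNAs against their overlapping coding partners over 24 sums, both axes as CPM + 10 on a log scale and points coloured by class. Tnc and 8030451A03Rik were high in the same sums (r = 0.978), and Sox2 stayed at 194 and 193 CPM in interneurons where Sox2ot was highest.

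The same pairs were read cell by cell after thinning to 2000 UMIs. In radial glia, 90.1% and 89.8% of cells with 8030451A03Rik had a Tnc UMI, against 50.9% and 43.6% of cells without it. Six3 was found in 69.2% and 72.4% of striatal neurons with Six3os1 and in 12.3% and 17.1% of those without. Both genes were higher in indirect-type neurons, and these shares were not taken within a striatal type. The part of that type difference in the shares was not tested.

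Sox2 was found in 30.1% and 29.0% of interneurons with Sox2ot and in 6.67% and 9.52% of those without. In radial glia the shares overlapped between cells with Sox2ot (40.1% and 49.7%) and without (47.4% and 42.4%). Kdm2b was found in 27.8% and 27.4% of excitatory neurons with A930024E05Rik and in 23.0% and 24.5% of those without. Cells of a class are not replicates, and reads shared by overlapping genes would raise such shares, which was not tested.

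**Figure D5:**
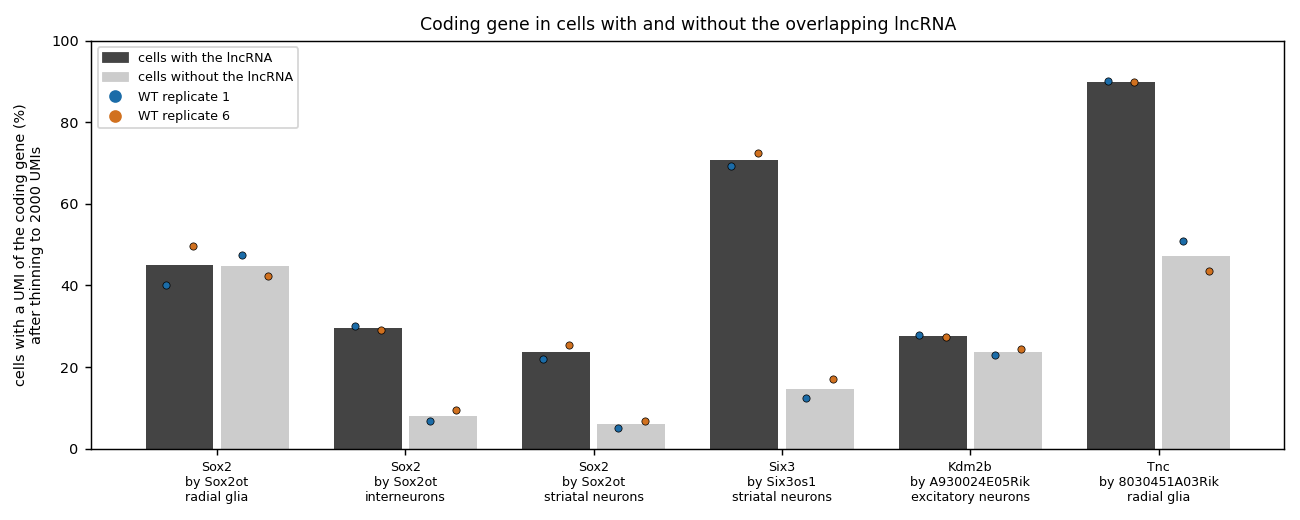
Share of cells with a UMI of the coding gene, after thinning to 2000 UMIs, in cells with (dark) and without (light) the overlapping lncRNA; bars are means of 2 libraries and points the libraries. Tnc was found in 90.1% and 89.8% of radial glia with 8030451A03Rik, and Sox2 shares overlapped in radial glia.

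Outside the overlapping pairs, the genes with the most similar profile over the 24 sums included lncRNAs of the same chromosome. C130073E24Rik was closest to 4930555F03Rik (r = 0.959), Gm2516 (r = 0.9197) and Gm45341 (r = 0.919), all on its own chromosome at 1183.9, 323.8 and 222.0 kb. B020031H02Rik was closest to the overlapping Gm45680 (r = 0.986), then to the GABAergic homeobox genes Dlx6 (r = 0.955) and Dlx5 (r = 0.952). Sox2ot was closest to Sox1ot (r = 0.956), the counterpart at the Sox1 locus, and also close to the overlapping Gm38505 (r = 0.916). After Tnc, 8030451A03Rik was closest to the Notch target Hes5 (r = 0.977) and the astroglial gene Aldh1l1 (r = 0.976).

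Six3os1 was closest, after Six3, to the dopamine receptor gene Drd2 (r = 0.817) and the glutamate receptor gene Grm4 (r = 0.799). 9130024F11Rik was closest to Gm10862 (r = 0.969), Abcc8 (r = 0.932) and Ccbe1 (r = 0.928). 2600014E21Rik was closest to the vesicular glutamate transporter gene Slc17a6 (r = 0.973), Kif26b (r = 0.958) and Nrn1 (r = 0.946). A930024E05Rik had Ust (r = 0.882), 2600014E21Rik (r = 0.860) and Slc17a6 (r = 0.847) as its nearest, Snhg11 had Lgi1 (r = 0.893), Grip1os2 (r = 0.874) and Grip1os1 (r = 0.857), and Gm28756 had Fbxo25 (r = 0.887), St8sia3 (r = 0.884) and Cnksr2 (r = 0.883). Drd2, Hes5, Dlx5, Slc17a6 and Nrn1 were themselves gate markers.

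Neighbouring coding genes were also tested between classes, where the members themselves were not. Between radial glia and excitatory neurons 14 of 19 tested were called, 8 higher in radial glia and 6 lower, where 63.1% of all 15381 genes were called. Tnc differed most, at 1124 and 1122 CPM against 5.09 and 2.83 CPM (log2 difference 7.97 ± 0.25, edgeR adjusted p = 6.15e-08). Pappa, a metalloprotease gene 974.2 kb beyond 8030451A03Rik, stood at 20.8 and 23.9 CPM against 0.856 and 0.695 CPM (4.65 ± 0.25, edgeR adjusted p = 1.04e-06). Sox2 (5.67 ± 0.11), Sox1 (4.58 ± 0.12) and Six3 (3.06 ± 0.22) were higher in radial glia, whereas Kdm2b (-1.51 ± 0.10) and the teneurin gene Tenm3 (-1.06 ± 0.10) were lower.

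Between interneurons and excitatory neurons 11 of 19 were called, 7 higher in interneurons, where 41.0% of 15204 genes were called. Sox2 stood at 194 and 193 CPM against 6.09 and 5.10 CPM (5.05 ± 0.10, edgeR adjusted p = 2.08e-08), Sox1 at 90.02 and 109 CPM against 3.19 and 3.48 CPM (4.83 ± 0.13, edgeR adjusted p = 4.94e-08) and Six3 at 39.8 and 47.9 CPM against 2.76 and 2.13 CPM (4.10 ± 0.17, edgeR adjusted p = 4.93e-07). Orai1, a calcium channel gene beyond A930024E05Rik, was lower (-2.58 ± 0.28, edgeR adjusted p = 1.94e-04). The genes beside C130073E24Rik lie 1896 and 2594.5 kb away, and Tenm3 was lower in interneurons (-1.29 ± 0.09), the class in which that lncRNA was highest.

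Between striatal neurons and interneurons 8 of 16 neighbours were called, where 18.7% of 11898 genes were called. Six3 was higher in striatal neurons, at 180 and 235 CPM against 39.8 and 47.9 CPM (2.23 ± 0.14, edgeR adjusted p = 1.26e-10), and Tenm3 too (0.999 ± 0.13). Sox2 (-0.59 ± 0.11) and Sox1 (-1.26 ± 0.15) were lower. B020031H02Rik lies 395.1 kb from Sox1 and had its highest level in striatal neurons, where Sox1 was at 37.5 and 45.7 CPM against 90.02 and 109 CPM in interneurons. Sox1 and B020031H02Rik had an r of 0.326 over the 24 sums.

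For comparison, a list of 29 other lncRNAs present in the matrices was read from the same fits. Between radial glia and excitatory neurons 22 of 27 tested were called (63.1% of all genes), 6 higher and 16 lower in radial glia. Otx2os1 (5.04 ± 0.30), Pax6os1 (4.70 ± 0.35) and Rmst (2.33 ± 0.19) were the highest in radial glia, and A330008L17Rik (-5.68 ± 0.38), Mir124a-1hg (-4.92 ± 0.16) and Tunar (-2.95 ± 0.48) the lowest. Between interneurons and excitatory neurons 15 of 26 were called (41.0% of all genes), led by the Dlx6 antisense transcript Dlx6os1 at 1190 and 1264 CPM against 8.70 and 11.4 CPM (6.87 ± 0.15, edgeR adjusted p = 2.19e-08), then Rmst (2.18 ± 0.12) and Mirg (1.87 ± 0.22). A330008L17Rik (-2.12 ± 0.13), Pantr1 (-1.21 ± 0.08) and Mir100hg (-0.65 ± 0.10) were lower there. Between striatal neurons and interneurons 8 of 24 were called (18.7% of all genes), with Rmst (1.32 ± 0.13), Rian (0.86 ± 0.11) and Meg3 (0.57 ± 0.11) higher and Dlx6os1 (-1.17 ± 0.11), Mir9-3hg (-0.92 ± 0.12) and Kcnq1ot1 (-0.84 ± 0.12) lower in striatal neurons.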

How the data were processed

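Per the labels, the authors made 2 E16.5 WT libraries with the 10x Genomics 3′ v3.1 kit and, per the submitters' processing notes, ran Cell Ranger 7.0.0 on mm10. The deposited matrices hold unnormalized UMI counts for every gene and barcode. The gene annotation, strand setting and intronic counting are not given in the sources used here. Members and gene lists were chosen with earlier results of these data known, and gate thresholds were set after the cells were seen. Barcodes of 1500 to 60000 UMIs, with a mitochondrial share below 10%, entered gates of distinct markers: at least 4 for radial glia, 3 for intermediate progenitors (with Eomes) and for excitatory neurons, and 2 GABAergic plus 2 subtype markers for interneurons and striatal neurons. Cells that met more than 1 gate (8 and 5) were left out. No doublet caller was run, so doublets inside a class remain. Within a class, members that the deposited matrices gave at low counts often failed the filter.

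UMI counts were summed per class and library (at least 20 cells) and tested with edgeR 4.0.16 (quasi-likelihood, TMM scaling, filterByExpr, two-sided, 2 classes per fit, Benjamini-Hochberg adjustment over all genes tested) in R 4.3.3; DESeq2 1.42.0 was an alternative, and the fits were tested on simulated data. Both classes of a contrast came from the same 2 libraries, so the library pairs the sums; the deviations of same-library sums correlated with r from 0.0983 to 0.286. The 2 libraries differed from each other (chi-square 26.9 per degree of freedom over 26962 genes). SDs and SEs cover 2 libraries, and limits of 3 counts cover counting error only. Shares of cells were taken after thinning each cell to 2000 UMIs, which left out shallower cells (271 interneurons, 78 excitatory neurons and 3 radial glia). Named genes were the members, the nearest coding genes and those they overlap, 3 nearest profiles per member, and the 3 largest rises and falls called of 30 listed lncRNAs, 29 of them present. A few items these rules name are not reported here. Promoter windows came from RefSeq (GRCm38.p6); neighbours came from GENCODE vM39. Alternatives were another scaling, filter, tool, single fit, stricter gates, a stricter cell filter (3000 to 30000 UMIs, under 5% mitochondrial), the library as a block, and, chosen after seeing the data, cells of 4000 to 12000 UMIs and interneurons without Meis2.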

Additional observations from a re-analysis of the deposited data

How the results depend on the processing

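With 2 libraries, leaving out 1 leaves no residual degrees of freedom, so single-library differences are values without a test. The 10 members kept their highest class in 8 and 10 cases without WT replicate 1 and without WT replicate 6, and in 9 under the stricter cell filter. With thinning to 4000 UMIs it was also 9, but there the class was taken by the share of cells with a UMI, not by CPM. Under stricter gates it was 6, where the changes were in Gm28756, 2600014E21Rik, A930024E05Rik and B020031H02Rik. Those gates left 0 and 1 intermediate progenitors, 5 and 3 GE progenitors and 13 and 18 striatal neurons, the classes these changes involve, so this last number says nothing of stability. Members called between MGE-type and CGE-type interneurons fell from 3 to 1 with DESeq2, among cells of 4000 to 12000 UMIs, and among cells without Meis2, and members called between layers fell from 5 to 2 under stricter gates, where 4 were tested. Neighbours called between interneurons and excitatory neurons fell from 11 to 7 with DESeq2 and 6 under stricter gates, those between striatal neurons and interneurons from 8 to 4 with DESeq2 and 5 among cells of 4000 to 12000 UMIs, and other lncRNAs in the latter contrast from 8 to 5 in a fit of all classes. The cause was not tested.

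Values turned sign for B020031H02Rik (1.90), Sox2ot (0.12) and 9130024F11Rik (-0.054) between interneuron types without Meis2, for C130073E24Rik between all cells of these types without replicate 1 (0.13, against -0.27 without replicate 6 and -0.05 with both), and for Sox2ot between layers under the stricter cell filter (-0.26); only the first was a called value in the main test. Of 220 alternative values of members, 186 were counted as the same, 11 as weaker, 9 as stronger, 9 as moved and 5 as reversed. For called neighbours, 238 of 303 were the same, 35 weaker and 30 moved, with none reversed. A tested value was the same if it kept direction and side of the threshold. Single-library values have no test, and were the same or moved by whether they lay within the SD of the 2 libraries from the fit. These totals are thus no measure of stability.

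DESeq2 was run without the filter on low counts, on 16869 to 24237 genes, so that tool and filter changed together in each of its values. It called 478 against 1216 for radial glia, 393 against 832 for interneuron types, 1531 against 2722 for layers, 211 against 412 for striatal types, 3863 against 6241 for interneurons against excitatory neurons and 974 against 2221 for striatal neurons against interneurons. For radial glia the library as a replicate block gave 1918 calls; the block changed no other call of a member than those given for Sox2ot, Snhg11 and Gm28756. Stricter gates gave 756 calls for layers and 2899 for interneurons against excitatory neurons, a fit of all classes 1738 for layers, cells of 4000 to 12000 UMIs 3966 for interneurons against excitatory neurons, and cells without Meis2 517 for interneuron types. Stricter gates were not run for radial glia, interneuron types, striatal types, radial glia against excitatory neurons and striatal neurons against interneurons, since a class there held under 20 cells in a library. Levels under 3 counts per library cannot be told from 0 at this depth.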

Other observations

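Inside radial glia, 6 of the 29 other lncRNAs were called of 19 tested, all lower in cycling than in non-cycling cells, where 13.1% of 9256 genes were called and 5.86% were called lower. Otx2os1 stood at 6.13 and 8.64 CPM in cycling against 34.3 and 55.7 CPM in non-cycling cells. Its non-cycling level alone carried it past the filter, so that no fitted fold is given. The number called is thus not read as a property of these lncRNAs. Malat1, an abundant nuclear transcript, stood at 10611 and 9424 CPM against 17193 and 18435 CPM (-0.82 ± 0.13, edgeR adjusted p = 0.00172). Meg3 (-1.93 ± 0.36), Rian (-1.76 ± 0.44), Rmst (-1.58 ± 0.29) and Mir100hg (-0.58 ± 0.15) were the others. Non-cycling cells were the shallower group, at median depths of 5303.5 and 6797 UMIs, and the part of depth in this was not tested.

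Between layers, 14 of 24 other lncRNAs tested were called (20.3% of all genes), 7 in each direction. Meg3, Rian and Mirg, transcripts of the imprinted Dlk1 locus, stood higher in deep-layer cells, Meg3 at 772 and 883 CPM against 112 and 132 CPM (2.75 ± 0.11, edgeR adjusted p = 5.34e-07). Pantr1, the transcript opposite Pou3f3, stood at 160 and 146 CPM in deep-layer against 779 and 730 CPM in upper-layer cells (-2.31 ± 0.09, edgeR adjusted p = 5.36e-07). Between interneuron types 9 of 22 were called (8.77% of all genes), with Dlx6os1 lower in MGE-type cells (-1.16 ± 0.14) and Kcnq1ot1 higher (0.72 ± 0.14). Between striatal types 5 of 21 were called (6.21% of all genes), with Rmst lower in direct-type cells (-2.16 ± 0.22) and Pantr1 higher (0.72 ± 0.17).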
